A study of Mus musculus with 2 samples.

Results

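The genes of DNA replication and nucleotide synthesis were examined as a set of 43 listed members, taken by gene symbol. No measured value entered that rule, but earlier results of these data were known when the members were listed. Of these, 42 had a probe set that names them alone, 90 probe sets in all, among 18193 named genes on the array, and 41 lay above the intensity filter described below. Chaf1a was not analysed here, and Tyms was the member under the filter. The set covers the proteins that license replication origins, the helicase that opens the duplex, the polymerases with their clamp, the enzymes that make deoxynucleotides, and cyclin E.

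The B cells came from NOD animals, a strain that develops autoimmune diabetes spontaneously, at 8 weeks of age. One group carried a transgene for human AIRE, a transcriptional regulator best known from the thymus, driven by an MHC class II promoter, which is active in B cells and other antigen-presenting cells. The other group was non-transgenic on the same background. The transgenic animals are described as 1 mouse line. Cells of both groups bear B220 and lack Thy1 and CD11c. RNA of 2 mice went onto 1 Affymetrix array per group, and the sources used here name no organ. With 1 array per group there is no replicate and no test: every difference describes these 2 arrays.

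A cell that commits to division first loads pairs of the Mcm2 to Mcm7 ring onto origins bound by the origin recognition complex, with Cdc6 and Cdt1 as loaders. Cyclin E with its kinase then helps Cdc45 and the GINS complex to turn the ring into an active helicase, and primase, the replicative polymerases, the clamp Pcna and its loader copy the strands. Most of these genes are transcribed under E2F factors as cells leave the resting state, and most mature B cells are resting, so in such cells their transcripts are a common readout of the cycling fraction. In RNA from a mixed sample, fewer cycling cells and less RNA per cell cannot be told apart.

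Values below are deposited linear intensities after aligning the medians of the arrays. A gene is represented by its probe set of highest mean level and counted as above the filter where at least 1 array read 98.8 or more, the median over both arrays. Values are written with the transgenic array first, as in 507 against 222, and followed by their log2 ratio. For ratios, anything under 25.1 was set to that floor. No member's representing probe set was under the floor, and the 41 members above the filter were above it on both arrays. Over all 10778 named genes above the filter the median log2 ratio was 0.19 (0.01 without the alignment), so each member is best read against that value. Intensity depends on the probe as well as on the transcript, and levels of different genes are not compared. The mouse Aire probe set read 89.7 against 86.9, under the filter, and whether it detects the human transgene was not tested. The ratio of 3′ to 5′ control probe sets was 1.49 against 1.25 for beta-actin and 0.775 against 0.670 for Gapdh, and its part in the ratios was not tested.

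The replication genes differed little between the arrays. Of the 41 members above the filter, 1 was 2-fold or more higher in the transgenic sample, as were 4.43% of all named genes, and 1 was 2-fold or more lower, as were 3.19% of all named genes. The first was Pole2, an accessory subunit of DNA polymerase epsilon, and the second Tk1, the cytosolic thymidine kinase of S phase. At 1.5-fold, 2 members were higher (17.4% of all named genes) and 3 lower (8.42% of all named genes), and 36 of 41 (87.8%) lay within 1.5-fold, against 74.2% of all named genes. The members' median log2 ratio was 0.01, which is -0.18 relative to the median of all named genes, and 29 of 41 lay under that median. This offset depended on the filter: with no filter it was -0.03, and 22 of 42 members lay under the median of all named genes. With the filter at the 75th percentile it was -0.29, and 21 of 25 members lay under that median. The median that moved most was that of all named genes, 0.03 with no filter, where the members' median was -0.01. Their ratios had an SD of 0.41 over genes, against 0.58 over all named genes. With 41 members, a count of 1 in either direction is near the background shares. All 41 were above the filter on both arrays. Of the 9744 named genes for which this held, 2.53% were 2-fold or more higher and 1.43% lower, smaller shares than those above. The share within 1.5-fold and the SD were not computed for those genes. The filter's part in the members' narrower spread was thus not tested. Without scaling, 2.7% of all named genes were 2-fold higher and 4.76% lower; after quantile normalization these shares were 3.5% and 3.78%, and after loess 3.55% and 3.76%.

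**Figure D1:**
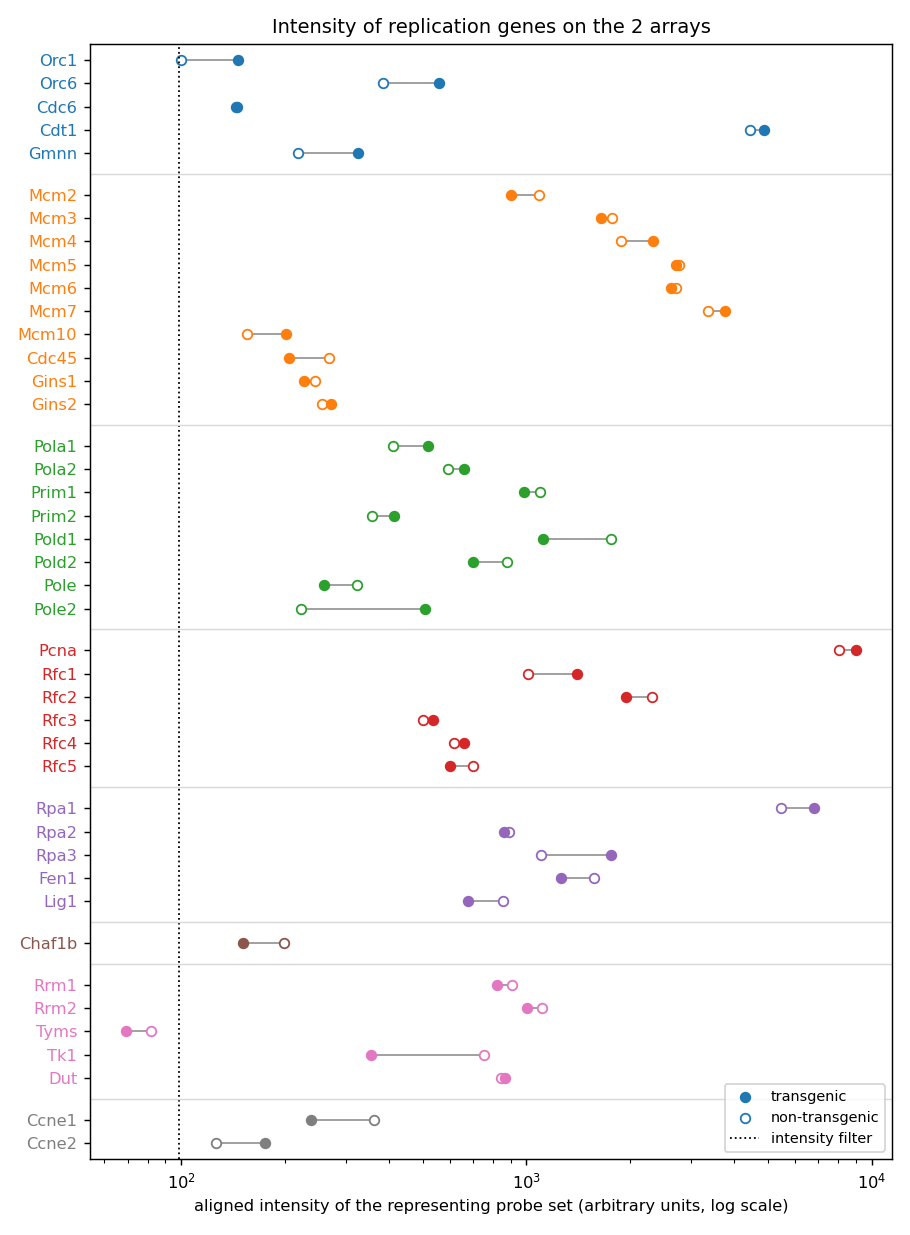
Aligned intensity of the representing probe set of 42 members on the transgenic array (filled) and the non-transgenic array (open), on a log axis, with the filter of 98.8 dotted and colours by role. The 2 points of most genes lie close together; the widest gaps are those of Pole2 (507 against 222) and Tk1 (355 against 755).

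Promoter windows from RefSeq (GRCm38.p6, 250 bases before to 50 after the start) were held for 35 members, 40 windows in all. They were searched on both strands for E2F-like letters, spelled TTTGGCGC, TTTCCCGC, TTTCGCGC, TTTGCCGC or TTTCCCGG, and for CCAAT, the letters bound by the factor NF-Y. Since TTTCGCGC and TTTGGCGC can overlap on opposite strands, 1 stretch of 12 bases can hold a pair of matches. An E2F-like match was found in 12 of 40 member windows, against 3.48% of all 32841 windows and 6.02% of windows of genes above the filter. CCAAT was found in 55.0% of member windows, 37.4% of all windows and 37.6% of those of genes above the filter. Median GC content was 61.3% in member windows and 60.7% in windows of genes above the filter. Of 6 Mcm genes with a window, 4 (Mcm3, Mcm5, Mcm6 and Mcm7) held at least 2 E2F-like matches and all 6 a CCAAT. Stretches are shown for 3 helicase genes and Orc1, whose products meet at the origin, and for Pole2 and Tk1 because these are the members past 2-fold. Each is written 5′ to 3′ on the gene's strand with E2F-like and CCAAT matches, on either strand, in capitals and positions counted from the start site.
Mcm5 (chr8:75109339-75109398, + strand, bases -170 to -111): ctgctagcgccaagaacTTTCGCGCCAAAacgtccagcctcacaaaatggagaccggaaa
Mcm6 (chr1:128359726-128359825, - strand, bases -120 to -21): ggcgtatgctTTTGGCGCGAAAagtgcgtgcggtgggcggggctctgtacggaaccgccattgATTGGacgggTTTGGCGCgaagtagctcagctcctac
Mcm7 (chr5:138172004-138172063, - strand, bases -180 to -121): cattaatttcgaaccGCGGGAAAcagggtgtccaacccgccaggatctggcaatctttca
Orc1 (chr4:108579394-108579453, + strand, bases -60 to -1): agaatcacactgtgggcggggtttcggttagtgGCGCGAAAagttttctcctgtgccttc
Pole2 (chr12:69228173-69228230, - strand, bases -40 to 18): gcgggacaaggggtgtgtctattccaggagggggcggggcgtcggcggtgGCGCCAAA
Tk1 (chr11:117826015-117826074, - strand, bases -60 to -1): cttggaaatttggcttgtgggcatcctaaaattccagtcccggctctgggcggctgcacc
The whole Tk1 window of 300 bases held neither motif in these spellings. The 12 members with an E2F-like match had log2 ratios from -0.66 to 1.19 with a median of 0.05, and the 21 without one that lay above the filter from -1.09 to 0.68 with a median of -0.14, so the ranges overlap over most of their width. A match is a run of letters, not a measured binding site.

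**Figure D2:**
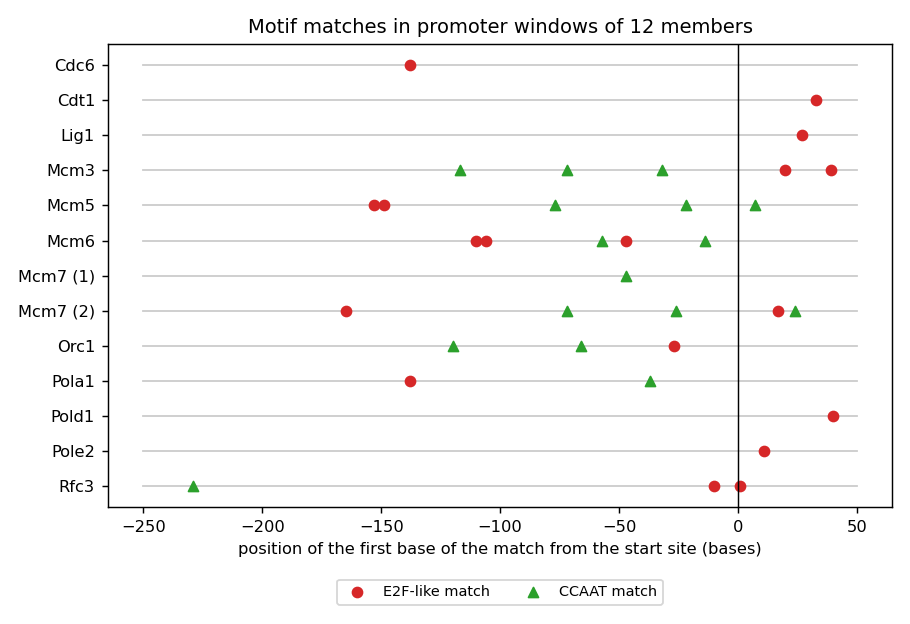
Positions of E2F-like matches (circles) and CCAAT matches (triangles) in promoter windows of the 12 members that hold an E2F-like match, in bases from the start site, where windows run from 250 before to 50 after it. Of the 18 E2F-like matches in member windows, 11 begin within 60 bases before the start or after it; Mcm7 has 2 windows, both drawn, and Lig1 has 3, of which the 1 with a match is drawn.

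Among the genes of origin licensing no member was 1.5-fold apart by its representing probe set. Gmnn, which encodes geminin, the inhibitor that holds Cdt1 back after replication has begun, read 325 against 217 (log2 ratio 0.58). Orc6, the smallest subunit of the origin recognition complex, read 557 against 384 (0.54). These 2 genes have 1 probe set each, and both lay above the median of all named genes. Cdt1, the loader itself, read 4876 against 4437 (0.14), while its other probe set above the filter was on the other side of 0, at 1394 against 1802 (-0.37). Cdc6, the ATPase that acts beside it, read 145 against 144 (0.01).

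Orc1, the largest subunit of the origin complex, had probe sets that disagree by more than 2-fold. The representing one read 146 against 99.8 (0.55), and the other read 60.5 against 153.6 (-1.34). No direction can be given for Orc1: the mean of its probe sets was -0.40.

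By its representing probe sets the replicative helicase was nearly level. Over Mcm2 to Mcm7 the log2 ratios ran from -0.28 to 0.30 with a median of -0.03, and 5 of the 6 lay under the median of all named genes. Mcm4 was the exception, at 2319 against 1883 (0.30), and its other probe set read 2098 against 1660 (0.34). Mcm2 read 899 against 1090 (-0.28), and 0.20 by its other probe set. Mcm3 read 1644 against 1769 (-0.11), with its other probe sets from -0.63 to 0.04, and Mcm5 2715 against 2761 (-0.02), with its other probe set at 863 against 1522 (-0.82). Mcm6 read 2621 against 2701 (-0.04, other probe set 0.33) and Mcm7 3748 against 3362 (0.16), with its other probe sets from -0.27 to 0.20. Subunits of this ring are needed in equal number, and the ratios of the 6 representing probe sets lay within 2-fold of each other. This rests on the choice of probe set. Those of Mcm3, Mcm4, Mcm5 and Mcm7 are marked s or x, a kind that may match further transcripts. By unmarked probe sets alone the ratios ran from -0.82 (Mcm5) to 0.34 (Mcm4), more than 2-fold apart, with Mcm3 at -0.53 and Mcm7 at -0.27.

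Mcm10, which joins the helicase as it fires, read 202 against 156 (0.37), and its other 2 probe sets were under the filter. They read 27.1 against 49.6 and 8.7 against 65.4, the last with its lower value under the floor. Cdc45, the helicase partner, read 206 against 269 (-0.39), and -0.16 by its other probe set. Of the GINS subunits, Gins1 read 226 against 244 (-0.11) and Gins2 272 against 256.5 (0.09). The other probe set of Gins2 read 116 against 212 (-0.87), so that its direction rests on the probe set.

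Of the 8 polymerase and primase genes, Pole2 was the only one 2-fold apart. It read 507 against 222, 2.29-fold higher, and its other probe set was dim on both arrays (3.0 and 27.3). The catalytic partner Pole lay on the other side of 0, at 259 against 322 (-0.32). With the mean of its probe sets, of which the dim one has a value set to the floor, Pole2 was at 0.54, under 2-fold.

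Pold1, the catalytic subunit of polymerase delta, had probe sets on either side of 0. The representing one read 1115 against 1760 (-0.66) and the other 1469 against 878 (0.74), and their mean was 0.04. Pold2, its accessory subunit, read 699 against 880 (-0.33). The subunits of the primer-making complex were within 1.5-fold by their representing probe sets. Pola1 read 518 against 410 (0.34), Pola2 657 against 594 (0.15, other probe set -0.13) and Prim2 415 against 356 (0.22, other probe set -0.24). Prim1, the primase subunit that makes the RNA primer, read 983 against 1097 (-0.16), and 0.50 by its other probe set.

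The sliding clamp gene Pcna, widely used as a mark of cycling cells, read 8995 against 8031 (0.16), almost at the median of all named genes. The clamp loader subunits Rfc1 to Rfc5 had a median of 0.09 and 4 of 5 lay under that median. Rfc1 read 1403 against 1007 (0.48), but its other 2 probe sets above the filter were at -0.14 and -0.15. Rfc2 read 1946 against 2306 (-0.24), but its other probe sets were at 0.32 and 0.00, so that no direction can be given for it. Rfc3 read 536 against 500.1 (0.10, other probe set 0.24), Rfc4 659 against 618 (0.09, other probe set 0.68) and Rfc5 599 against 698 (-0.22). None of the 6 genes was 1.5-fold apart by its representing probe set.

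Rpa1, Rpa2 and Rpa3 form the complex that coats single-stranded DNA. Rpa3, the smallest of them, read 1762 against 1100.3 (0.68), the highest ratio among the members after Pole2. Rpa1 read 6790 against 5469 (0.31), and 0.11 by its other probe set, and Rpa2 858 against 889 (-0.05), and -0.22 by its other probe set. The enzymes that finish the lagging strand were both on the lower side: the flap nuclease Fen1 read 1261 against 1569 (-0.32, other probe set -0.16) and the DNA ligase Lig1 678 against 858 (-0.34). Chaf1b, a subunit of the chromatin assembly factor that places histones on new DNA, read 151 against 198 (-0.40).

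The nucleotide synthesis genes were all under the median of all named genes, 4 of 4 above the filter, with a median log2 ratio of -0.14. Tk1, which salvages thymidine, read 355 against 755, a log2 ratio of -1.09, by its only probe set. Rrm2, the subunit of ribonucleotide reductase that limits its activity in S phase, read 1004 against 1109 by its representing probe set (-0.14). Its other probe sets read 288 against 509 (-0.82) and 300 against 430 (-0.52), so that all 3 were on the lower side. Rrm1, the larger subunit, read 820 against 908 (-0.15), and 0.17 by its other probe set. Dut, the dUTPase that keeps uracil out of DNA, read 864 against 841 (0.04, other probe set 0.32). Tyms, the thymidylate synthase, lay under the filter on both arrays at 69.4 and 81.9.

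The 2 cyclin E genes differed in opposite directions. Ccne1 read 237 against 361 (-0.60), and -0.45 by its other probe set, and Ccne2 read 175 against 127 (0.47).

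**Figure D3:**
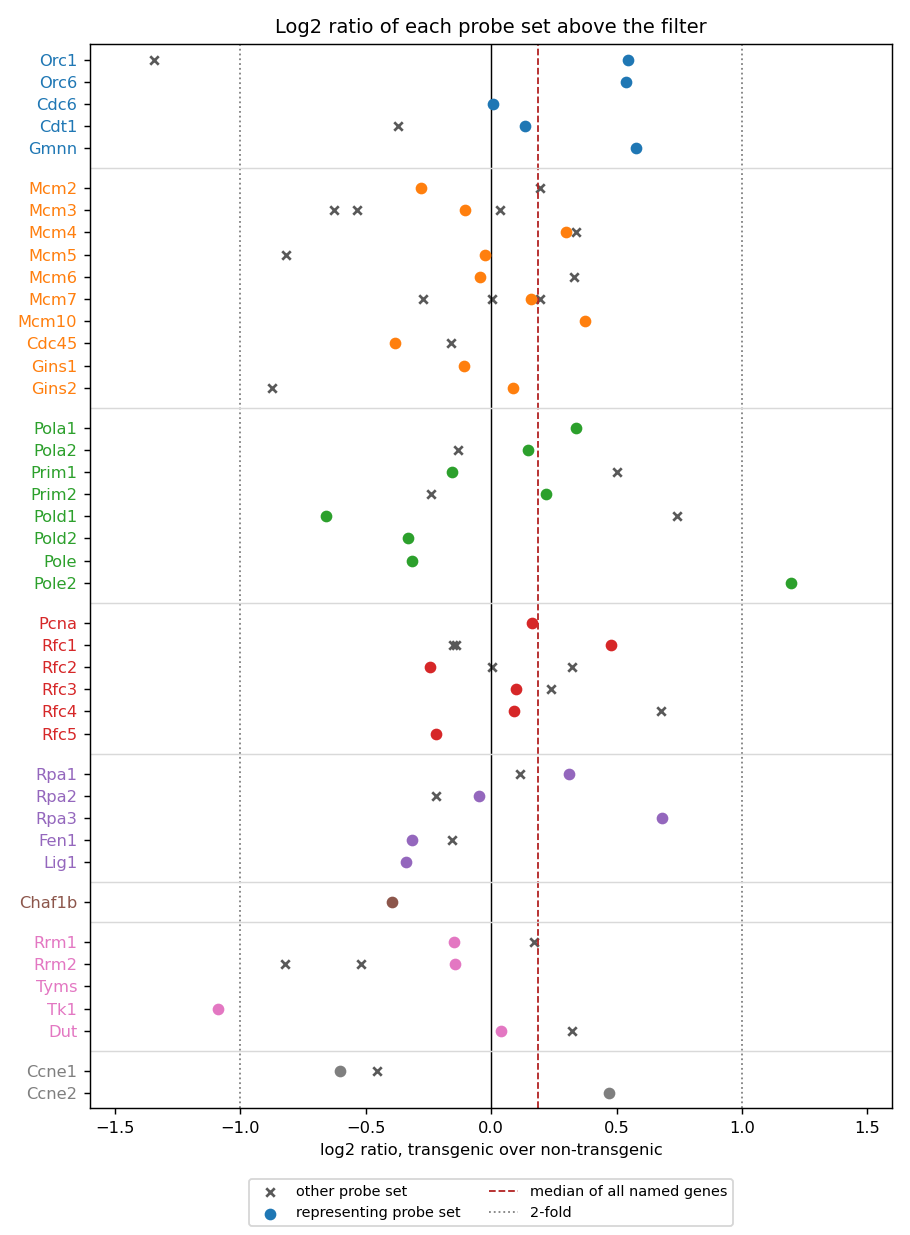
Log2 ratio, transgenic over non-transgenic, of the 73 member probe sets above the filter: coloured points are the representing probe sets, crosses the others, and the dashed line is the median of all named genes (0.19). Only Pole2 and Tk1 have a representing probe set beyond the dotted 2-fold lines, and 1 other probe set, of Orc1, lies beyond them at -1.34.

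Where a gene had several probe sets, their spread was as wide as the spread between genes. For the 25 members with 2 or more probe sets above the filter, the pooled SD within a gene was 0.42 on the log2 scale, against an SD of 0.41 between members. In 11 of the 25 (44.0%) all probe sets had the same sign, against 50.3% of such genes array-wide. Most single ratios given above are thus no larger than the scatter between probe sets of 1 gene.

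The kind of probe set moved with the ratio. Affymetrix marks with s or x the probe sets whose probes may match further transcripts. In 10 of the 13 members with both kinds above the filter the marked probe sets had the higher ratio, with a median difference of 0.47, and over 1763 named genes with both kinds this held in 63.6% with a median of 0.17. The gap was 0.79 in Mcm5 and 1.40 in Pold1. By unmarked probe sets alone, 41 of 56 (73.2%) lay under the median of all named genes, against 54.3% array-wide, and by marked ones 10 of 17 (58.8%), against 46.3% array-wide. This contrast was chosen after its values were seen, and what the marked probes detect was not tested.

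**Figure D4:**
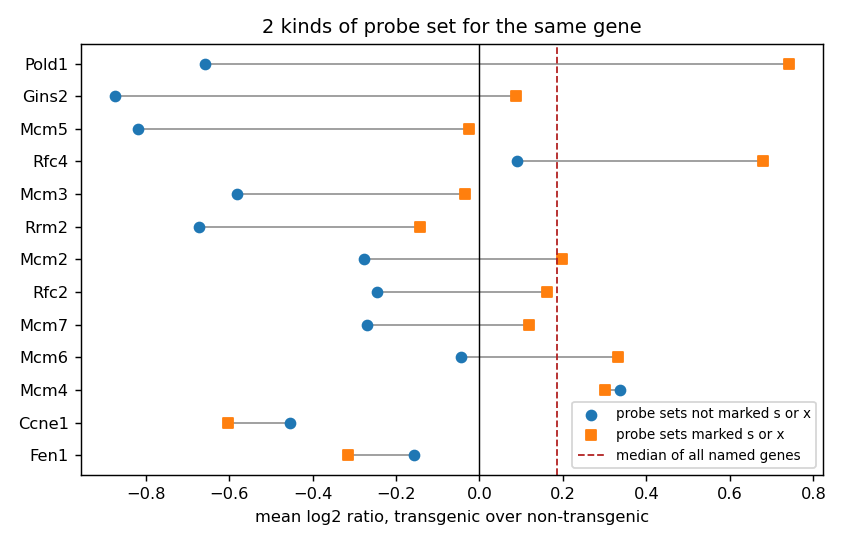
Mean log2 ratio of unmarked probe sets (circles) and of probe sets marked s or x (squares) for the 13 members with both above the filter; the dashed line is the median of all named genes. The square lies to the right in 10 of 13 genes, farthest in Pold1 (-0.66 and 0.74).

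Further genes of the same pathway, listed by function, were close to the members. Of 33 other replication factors above the filter, none was 2-fold apart in either direction, and their median was 0.06. The 2 with the brightest probe sets, an order of probe sets and not of transcripts, were Pold4 and Supt16. Pold4, the smallest subunit of polymerase delta, read 2882 against 5409 (-0.91), and Supt16, a subunit of the histone chaperone FACT, 3878 against 3326 (0.22, other probe set -0.54). Mcm9, a relative of the helicase ring, read 379 against 192 (0.98, other probe set -0.13). Of 30 other enzymes of nucleotide synthesis, 1 was 2-fold lower and none higher, with a median of 0.12. That gene was Dctd, the deaminase that feeds thymidylate synthesis, at 61.6 against 125 (-1.02), which passed the filter on the non-transgenic array alone.

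Of 28 genes that control the passage from G1 to S phase, 1 was 2-fold lower and none higher, with a median of 0.14. It was E2f4, which with pocket proteins holds E2F targets down in resting cells, at 417 against 1176 by its only probe set, 2.82-fold lower. The activator E2f1 read 186 against 224 (-0.27), and 1.05 by its other probe set, and the pocket protein gene Rb1 read 5408 against 3769 (0.52, other probe set 1.10). The mitosis list had the lowest median of these lists, -0.22 over 21 genes. The list held 5 genes at least 1.5-fold lower (8.42% of all named genes) and 1 higher (17.4% of all named genes). In it the checkpoint kinase Bub1b read 75.1 against 227 (-1.59), above the filter on the non-transgenic array alone, and its other probe sets were at 0.66 and -0.22. The others at least 1.5-fold lower were Cdk1 (-0.82), Ube2c (-0.74), Birc5 (-0.73) and Plk1 (-0.59). The higher one was Prc1 (0.70, other probe set -0.21). The proliferation marker Mki67 read 1272 against 1187 (0.10). No test compares these lists with each other.

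**Figure D5:**
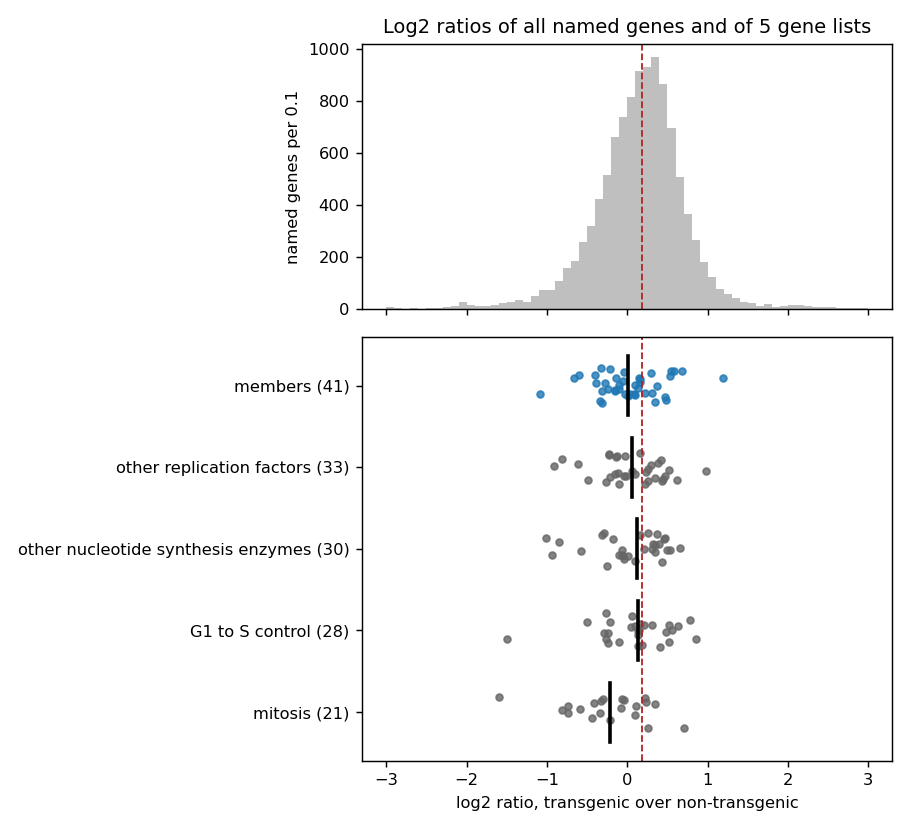
Top, histogram of the log2 ratios of 10778 named genes above the filter, with those beyond 3 in the end bins; bottom, the ratios of single genes in 5 lists with black bars at the medians (number of genes in brackets). Medians run from -0.22 for mitosis to 0.14 for G1 to S control, and the dashed line marks the median of all named genes (0.19).

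Cell type markers differed between the arrays beside these values, and their part in the members' ratios was not tested. Counts below are of markers above the filter, and summed intensities are over all markers of a list on the array, those under the filter included. The 9 measured B cell markers were all under the median of all named genes, with a sum of 140230 against 221337. B cell progenitor markers, genes of a compartment that contains cycling cells, summed to 8952 against 7450, and 5 of 9 were at least 2-fold higher. Of these 5, Rag1, Vpreb1, Dntt and Kit passed the filter only through the transgenic array, so that they had to be higher there; Myb was above it on both, at 1920 against 779.5. Rag2 was under the floor on both arrays. Of the 9 progenitor markers, 2 lay under 0. Ebf1 read 2642 against 3630 (-0.46), with its other probe sets from -1.11 to 0.05, and Igll1 read 218 against 222 (-0.03, other probe set -0.98). Germinal centre markers, of another cycling B cell stage, summed to 2839 against 4460, and 3 of 7 were at least 2-fold lower. Of these 3, Mef2b passed only through the non-transgenic array. S1pr2 read 212 against 554 (-1.39), but its other probe set lay on the other side of 0, at 152 against 84.4 (0.85). Natural killer markers summed to 7575 against 4858, with 2 of 8 at least 2-fold higher. Myeloid markers summed to 18611 against 18079, with 1 of 8 higher, and T cell markers to 1360 against 1405, with 1 of 6 higher and 1 lower. Dendritic cell markers summed to 2152 against 2078, with 1 of 5 lower. The single higher myeloid and T cell markers (Mpo and Cd4) and the lower dendritic one (Batf3) each passed the filter through 1 array. The lower T cell marker was Thy1, which the cells are described as lacking. It read 101 against 208 (-1.04), above the filter on both arrays. Plasma cell markers summed to 49666 against 50070, with none of 7 at least 2-fold apart. Erythroid markers summed to 2860 against 2425, with none of 3 at least 2-fold apart and Hba-a1 and Alas2 under the floor on both arrays. The summed intensity of the 42 members was 55215 against 52839, a log2 ratio of 0.06, under the median of all named genes (0.19). Bright probe sets weigh most in this sum, such as Pcna (8995 against 8031) and Rpa1 (6790 against 5469). It was taken after the alignment, which multiplied transgenic values by 1.06 and non-transgenic values by 0.947. No direction of the members is read from it.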

How the data were processed

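The authors deposited 1 linear intensity for each probe set and array. Per the labels, fragmented cDNA carried biotin; software, scaling and genome build are not given in the sources used here. After trimming 2% at each end, the mean intensity of either array was 500.0. Of 45101 probe sets, 64 controls were set aside; of the rest, the platform table gives 1 gene symbol to 34945, more than 1 to 932 and no symbol to 9160. Names were taken from the first kind. All 90 member probe sets matched RefSeq (GRCm38.p6) by Entrez identifier and 0 were renamed.

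Medians (93.1 transgenic, 104.3 non-transgenic) were aligned with factors of 1.06 and 0.947. The floor is the pooled 25th percentile, the filter the pooled median. Members and lists were chosen with earlier results of these data known. Every member is accounted for; in the other pathway lists the rule names up to 4 genes past 2-fold or, with none, the 2 of highest probe set intensity. Mcm9, E2f1, Rb1, the mitosis genes named other than Bub1b, and the marker genes named were chosen after their values were seen. No test was possible with 1 array per group, and their number limits the precision. The steps were tested on simulated data, in which bright genes changed by more than any member's representing ratio and all probe sets of a gene shared the change. That test does not cover small ratios or probe sets that disagree. Its simulated noise was also smaller than the scatter seen here between probe sets of 1 gene. Scaling, filter, floor, fold threshold and the choice of probe set were varied. Python 3.11.15, numpy 2.4.6, pandas 2.3.3, statsmodels 0.14.6 and matplotlib 3.10.9 were used.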

Additional observations from a re-analysis of the deposited data

How the results depend on the processing

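Tk1 was at least 2-fold lower under all 11 alternatives tried at that threshold, and Pole2 at least 2-fold higher under 9 of them. For Tk1 most of these could not differ. It has 1 probe set, not marked s or x, so that neither the choice of probe set nor the filter can change its ratio. Over the settings its log2 ratio ran from -1.25 to -1.06. For Pole2 too, several of the 9 could not differ. Neither of its 2 probe sets is marked s or x, and of 2 probe sets the median rule takes the brighter. The filter and floor settings do not change its ratio either. Pole2 was at 1.03 without scaling, 1.11 after quantile normalization and 1.1 after loess. No member was 2-fold higher (0) with the filter at the 75th percentile, which leaves Pole2 out, or with the mean of all probe sets (Pole2 at 0.54). With a 1.5-fold threshold, 3 members were lower (Pold1, Tk1 and Ccne1) and 2 higher (Pole2 and Rpa3). The members' median log2 ratio was -0.16 without scaling, -0.11 after quantile normalization and -0.14 after loess, as the median of all genes shifted with it. Relative to that median the members lay at -0.29 with the filter at the 75th percentile and at -0.03 without a filter (22 of 42 members under it), and the difference was under 0 in each of the 11 alternatives. These alternatives reuse the same arrays and mostly the same probe sets, so they are not separate evidence for that sign. Single members moved by less than the spread of probe sets within a gene under every scaling and floor tried. With unmarked probe sets only, Mcm3 (-0.53), Mcm5 (-0.82), Mcm7 (-0.27), Gins2 (-0.87) and Rrm2 (-0.82) moved by more. With the probe set of median ratio, Mcm10 (-0.88) and Rfc1 (-0.14) did so. That value of Mcm10 comes from a probe set under the filter, at 27.1 against 49.6. With the mean of all probe sets, Orc1 (-0.40), Mcm10 (-0.63, with a value at the floor), Gins2 (-0.39) and Pold1 (0.04) moved by more. No paired analysis was possible because each group had 1 array. Depth does not apply to arrays and 1 array per group limits the precision of every value.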
